A study of Mus musculus with 7 samples.

Results

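The mitochondrial mRNAs described here encode the subunits of respiratory complexes III, IV and V that are made inside the mitochondrion. They were taken by name from the deposited rows: mt-Co1, mt-Co2 and mt-Co3 for complex IV, mt-Atp8_6 for complex V and mt-Cytb for complex III. They are 5 of 49584 listed features, and 5 of the 11 mitochondrial mRNA features. Small RNA had been sequenced from crude heart mitochondria of mice, so a count at an mRNA is a count of short fragments of it. The 4 knockout libraries came from mice labelled L/L, cre with genotype Tefm -/-, and the 3 control libraries from mice labelled L/L with genotype Tefm +/+. In both groups an exon of Tefm lay between loxP sites, and in the knockout mice cre was driven from the muscle creatine kinase promoter. That promoter works in heart and skeletal muscle cells, so other cells of the heart keep the gene. No age, sex or strain is given in the labels used here. The design text counts 4 control mice, and 3 control libraries entered the analysis. A library was treated as 1 mouse. Should that be wrong, the p-values given describe how libraries vary and not how mice do.

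TEFM is the elongation factor of the mitochondrial RNA polymerase, and it keeps the polymerase on its template over long distances. The heavy (H) strand transcript runs through the rRNAs and most mRNAs and tRNAs in one precursor, and enzymes that cut out the tRNAs thereby set free the mRNAs between them. Complex III passes electrons to cytochrome c, complex IV hands them to oxygen, and complex V uses the proton gradient that results to make ATP. In heart, which depends on oxidative phosphorylation, these complexes are abundant, and some of their subunits are still encoded in mitochondrial DNA.

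In the GENCODE M21 annotation (GRCm38), all 5 lie on the plus strand of chromosome M. mt-Co1, the catalytic subunit of cytochrome c oxidase, spans 1545 bases (5328 to 6872). mt-Co2, the subunit that receives electrons from cytochrome c, spans 684 bases (7013 to 7696). mt-Atp8_6 was read as the joint row of mt-Atp8 and mt-Atp6, which encode subunits of the membrane part of ATP synthase and together span 842 bases (7766 to 8607). mt-Co3, a core subunit beside the catalytic one, spans 784 bases (8607 to 9390) and shares its first base with the last base of mt-Atp6. mt-Cytb, cytochrome b of complex III, spans 1144 bases (14145 to 15288), behind the complex I genes.

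The first and last 40 bases of each mRNA are shown to mark where its annotated sequence begins and ends. The start codon and the stop codon, or the part of it that is encoded, are in capitals. The sequences were read 5′ to 3′ from the GENCODE M21 transcripts of GRCm38.
mt-Co1 start, chrM:5328-5367, plus strand: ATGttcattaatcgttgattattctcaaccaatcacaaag
mt-Co1 end, chrM:6833-6872, plus strand: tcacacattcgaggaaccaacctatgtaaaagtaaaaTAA
mt-Co2 start, chrM:7013-7052, plus strand: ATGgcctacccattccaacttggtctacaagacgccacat
mt-Co2 end, chrM:7657-7696, plus strand: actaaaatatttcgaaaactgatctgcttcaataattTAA
mt-Atp8_6 start, chrM:7766-7805, plus strand: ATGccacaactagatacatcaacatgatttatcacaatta
mt-Atp8_6 end, chrM:8568-8607, plus strand: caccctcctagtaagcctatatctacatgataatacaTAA
mt-Co3 start, chrM:8607-8646, plus strand: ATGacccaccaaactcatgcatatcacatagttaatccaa
mt-Co3 end, chrM:9351-9390, plus strand: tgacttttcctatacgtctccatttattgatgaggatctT
mt-Cytb start, chrM:14145-14184, plus strand: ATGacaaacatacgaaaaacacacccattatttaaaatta
mt-Cytb end, chrM:15249-15288, plus strand: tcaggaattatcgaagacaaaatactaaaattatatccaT

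All 5 open with ATG. mt-Co1, mt-Co2 and mt-Atp8_6 end in an encoded TAA, whereas mt-Co3 and mt-Cytb end 1 base after their last full codon, on the T that polyadenylation turns into a stop codon. The mRNAs that end in a bare T are those that run directly into an H-strand tRNA: mt-Tg begins 0 bases after mt-Co3, and mt-Tt begins 0 bases after mt-Cytb. mt-Co1 has no H-strand tRNA at either end, since mt-Ty before it and mt-Ts1 behind it lie on the other strand. Its last 3 bases overlap mt-Ts1, and the nearest H-strand tRNA, mt-Td, starts beyond a gap of 69 bases. A gap of 1 base separates mt-Co2 from mt-Td before it, and likewise mt-Atp8_6 from mt-Tk.

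Within mt-Atp8_6 the reading frames of mt-Atp8 and mt-Atp6 overlap by 43 bases, and that overlap is shown in capitals because fragments from it cannot be assigned to either frame.
mt-Atp8 and mt-Atp6 overlap, chrM:7907-7989, plus strand: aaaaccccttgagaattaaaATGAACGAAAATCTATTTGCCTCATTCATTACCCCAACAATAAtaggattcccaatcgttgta

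Nuclear copies of mitochondrial DNA could share reads with these mRNAs. Among annotated nuclear transcripts, 10 matched a member over at least 100 bases at 90% identity or more, of which 9 were listed in the count files. Those 9 had 0 counts over the 7 libraries, against 1750757 counts for the 5 mRNAs. How reads with several possible origins were placed is not stated in the notes used here. The share of G and C was similar among the members, from 35.2% in mt-Atp8_6 to 39.9% in mt-Co1.

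The libraries held 973835 to 1302619 counts in knockouts and 1560798 to 2570739 in controls. Tefm had 3 counts over the knockouts and 3 over the controls, too few to show its loss or to check the labels. Control 1 stood apart: mitochondrial mRNAs took 10.9% of its counts, against 63.2% and 47.2% in controls 2 and 3 and 4.42% to 14.4% in knockouts. The libraries also varied in how much long and short nuclear RNA they held. The log2 ratio of microRNA plus snoRNA counts to nuclear protein-coding counts was 1.84, 3.11, 0.54 and -2.44 in knockouts 1 to 4 and 2.88, -1.35 and 0.61 in controls 1 to 3. All 6 cardiomyocyte markers (Myh6, Actc1, Tnnt2, Tnni3, Mb and Pln) were detected, with summed levels of 906.6 to 5933 CPM of raw total counts in knockouts and 1973 to 2836 in controls. All 6 had negative log2 fold changes with TMM scaling, and 3 had under scaling to total counts, to mitochondrially encoded features or to microRNA genes; edgeR called 0 of them under each. The markers of other cells were all detected too. On the same scale, the 5 fibroblast markers summed to 99.0 to 1791 in knockouts and 149.3 to 362.5 in controls, and the 4 endothelial markers to 31.5 to 337.5 in knockouts and 56.4 to 163.4 in controls. The 4 white blood cell markers summed to 7.80 to 59.0 in knockouts and 15.4 to 33.8 in controls, and the 5 erythroid markers to 3.84 to 28.0 in knockouts and 11.3 to 13.9 in controls. Of the markers tested, edgeR called 1, Cd74 of white blood cells, lower in knockouts with TMM scaling (log2 fold change -2.12, SE 0.43, adjusted p = 0.0342), a call that was absent under those 3 scalings. The part of these cells in the results was not tested.

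Fragments of all 5 mRNAs had a lower mean in Tefm knockout than in control libraries. The decrease passed the test for mt-Co1. With TMM scaling the knockout and control libraries did not overlap for mt-Co1, mt-Co2, mt-Atp8_6 and mt-Co3, whereas they did for mt-Cytb. Normalised counts are edgeR's CPM, scaled between libraries by TMM, and a call needed an adjusted p below 0.05 (Benjamini-Hochberg, over the 1505 genes tested). All 5 members passed the filter on low counts.

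Among the mRNAs of complex IV, mt-Co1 had 10819.6, 5715, 5611 and 4597 CPM in knockouts 1 to 4, against 32619, 158841 and 149485 CPM in controls 1 to 3. Every knockout lay below every control, and control 1 lay well below the other controls. The mean was 6686 ± 2802 CPM in knockouts (SD, n = 4) and 113648 ± 70330 CPM in controls (SD, n = 3), and mt-Co1 fell by 4.09 on the log2 scale (SE 0.90; edgeR quasi-likelihood test, adjusted p = 0.0377). mt-Co2 had 8569.9, 4027, 5771 and 5697 CPM in knockouts, against 11336, 54382.5 and 55600.3 CPM in controls. The gap between the groups was narrow, with knockout 1 closest to control 1. Its log2 fold change came to -2.75 (SE 0.81; edgeR adjusted p = 0.0834). mt-Co3 had 5101, 2926, 2491 and 2136 CPM in knockouts, against 6291, 29654 and 26080.3 CPM in controls. Here too the groups were apart, and knockout 1 came closest to control 1. For mt-Co3 the log2 fold change was -2.71 (SE 0.79; edgeR adjusted p = 0.0816).

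The complex V mRNA mt-Atp8_6 had 11253, 5099, 8150.2 and 5942 CPM in knockouts, against 17848, 70103 and 76896 CPM in controls. No knockout reached control 1, which was the lowest control. mt-Atp8_6 had a log2 value of -2.85 for knockouts over controls (SE 0.81; edgeR adjusted p = 0.0750). The complex III mRNA mt-Cytb had 19655, 10399, 10405 and 7593 CPM in knockouts, against 14204, 56814 and 54729 CPM in controls. Knockout 1 was above control 1, and the other knockouts were below every control. With a mean of 12013 ± 5264 CPM in knockouts (SD, n = 4) and 41916 ± 24021.5 CPM in controls (SD, n = 3), the log2 fold change of mt-Cytb was -1.80 (SE 0.79; edgeR adjusted p = 0.218).

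**Figure D1:**
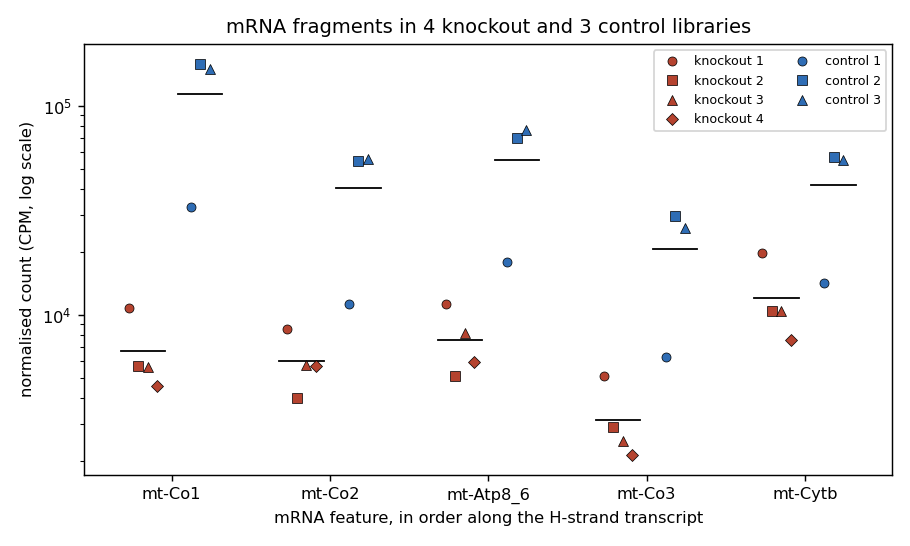
Normalised counts (CPM, log axis) of the 5 mRNAs in 4 knockout libraries (red) and 3 control libraries (blue), with horizontal lines at group means and marker shapes for the library number. Control 1 lies below controls 2 and 3 for every mRNA, and knockout 1 exceeds control 1 only for mt-Cytb.

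Of the 5 mRNAs, 1 was called lower, where 1.73% of all tested genes were called lower and 6.98% were called in either direction. With TMM scaling, groups did not overlap, with knockouts lower, for 4 of the 5, where 9.9% of tested genes did so. Of the 5 H-strand complex I mRNAs (compared below), 1 was called lower, mt-Nd3 (edgeR adjusted p = 0.0428). All 5 of these did not overlap with TMM scaling, with knockouts lower. As a percent of all counts, mt-Nd1, mt-Nd2 and mt-Nd5 overlapped between the groups. The median log2 fold change of the 5 members was -2.75, against -3.13 for these complex I mRNAs and 0.02 for all tested genes. In the authors' deposited table, whose sign was read as knockout over control from the counts, all 5 had negative log2 fold changes with adjusted p under 0.05, from -3.63 for mt-Co1 (adjusted p = 3e-08) to -1.66 for mt-Cytb (adjusted p = 0.0404), where 2.07% of the genes with an adjusted p passed as lower. DESeq2 on the same counts called 4 of the 5 lower, where 2.11% of its genes were, and mt-Cytb had an adjusted p of 0.0803. The mt-Co1 call of the edgeR test was lost when any 1 of the 7 libraries was left out (adjusted p = 0.0598 to 0.211), under scaling to microRNA genes and with no filter on low counts. Without control 1 the log2 fold changes were -4.69 for mt-Co1, -3.37 for mt-Co2, -3.45 for mt-Atp8_6, -3.30 for mt-Co3 and -2.38 for mt-Cytb (edgeR adjusted p = 0.0598, 0.0746, 0.0780, 0.0701 and 0.159). With the log2 ratio of short to protein-coding nuclear RNA as a covariate, chosen after the data were seen, mt-Co1, mt-Co2, mt-Atp8_6 and mt-Co3 were called lower (edgeR adjusted p = 0.00171, 0.00799, 0.00624 and 0.00985) and mt-Cytb was not (0.0554), where 11.6% of tested genes were called lower with that covariate.

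The size of the differences and the separation of the groups depended on the scaling between libraries. The direction of the differences did not. The median over all tested genes moved to 0.89 on the log2 scale when libraries were scaled to total counts, to 1.12 with mitochondrially encoded features and to 0.88 with microRNA genes. The log2 fold change of mt-Co1 was then -3.55, -3.29 and -4.02, and that of mt-Cytb was -1.29, -1.04 and -1.78. mt-Co1 had the most negative and mt-Cytb the least negative value of the 5 under each of these scalings and under TMM and RLE. Mitochondrially encoded features together took 64.6% to 88.1% of all counts in knockouts and 70.2% to 87.5% in controls. With TMM scaling, the rRNAs mt-Rnr1 and mt-Rnr2 had log2 fold changes of 1.27 and -0.40 (edgeR adjusted p = 0.415 and 0.894). The number of mitochondria in each preparation is not known here, and its part in the differences was not tested.

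**Figure D2:**
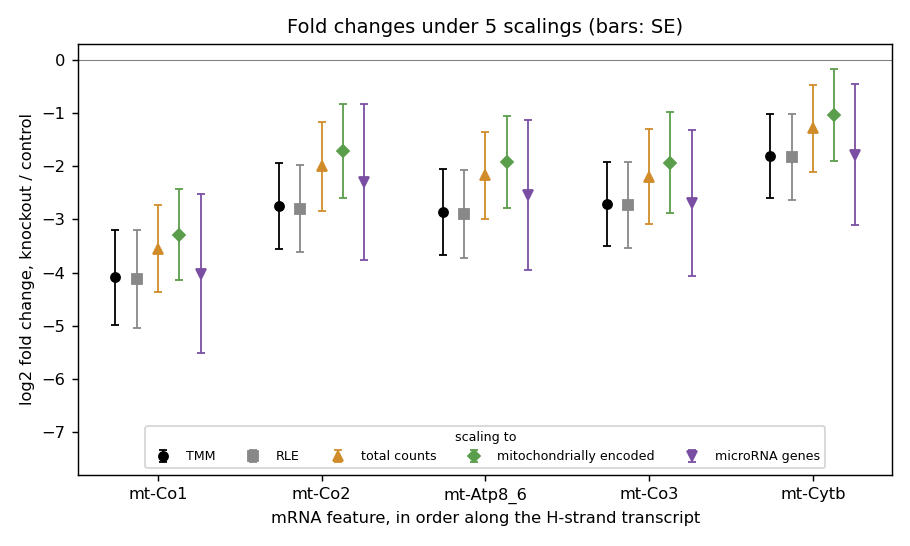
Log2 fold change of each mRNA, knockout over control, from the edgeR fit under 5 scalings between libraries, with bars for the SE. All 25 values are below 0, and in each scaling mt-Co1 is lowest and mt-Cytb highest.

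Relative to each other, within a library, the mRNAs differed between the groups in the balance of mt-Co1 and mt-Cytb. mt-Co1 made up a smaller and mt-Cytb a larger part of the summed counts of the 5 in every knockout than in any control, and scaling between libraries cancels in these shares. mt-Co1 had 19.5%, 20.3%, 17.3% and 17.7% of the 5 in knockouts 1 to 4, against 39.6%, 43.0% and 41.2% in controls 1 to 3. Control 1, low in its level of every member, matched the other controls in this share. The mean share of mt-Co1 was 18.7% ± 1.43 in knockouts (SD, n = 4) and 41.3% ± 1.66 in controls (SD, n = 3), a difference of -22.6 percentage points (two-sided exact permutation test, p = 0.0286, adjusted p = 0.107). mt-Cytb had 35.5%, 36.9%, 32.1% and 29.2% in knockouts, against 17.3%, 15.4% and 15.1% in controls. It was the most counted of the 5 in each knockout, while mt-Co1 was so in each control. The mean share of mt-Cytb was 33.4% ± 3.45 in knockouts (SD, n = 4) and 15.9% ± 1.18 in controls (SD, n = 3), a difference of 17.5 percentage points (exact permutation test, p = 0.0286, adjusted p = 0.107). The p of 0.0286 is the smallest that the 35 splits of 7 libraries into 4 and 3 allow, and p-values were adjusted over 15 values taken within libraries (the shares and the ratios given below), so neither share passed after adjustment. Without control 1 the differences were -23.4 percentage points for mt-Co1 and 18.2 for mt-Cytb, at the smallest exact p that 6 libraries allow (0.0667).

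The other 3 members overlapped between the groups in their shares. mt-Co2 had 15.5%, 14.3%, 17.8% and 21.9% in knockouts, against 13.8%, 14.7% and 15.3% in controls. Knockout 4 was highest and knockout 2 lay among the controls, and the difference of means was 2.77 percentage points (exact permutation test, p = 0.257). mt-Atp8_6 had 20.3%, 18.1%, 25.1% and 22.9% in knockouts, against 21.7%, 19.0% and 21.2% in controls, with knockouts on both sides of the controls (difference 0.995 percentage points, exact permutation test, p = 0.629). mt-Co3, the least counted member in every library, had 9.21%, 10.4%, 7.68% and 8.23% in knockouts, against 7.64%, 8.02% and 7.19% in controls. Knockouts 1, 2 and 4 lay above every control and knockout 3 among them (difference 1.26 percentage points, exact permutation test, p = 0.171). With mt-Co1 left out of the sum, all 3 differences turned negative, to -3.55 for mt-Co2, -8.53 for mt-Atp8_6 and -2.04 for mt-Co3 (exact permutation test, p = 0.200, 0.0571 and 0.143).

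**Figure D3:**
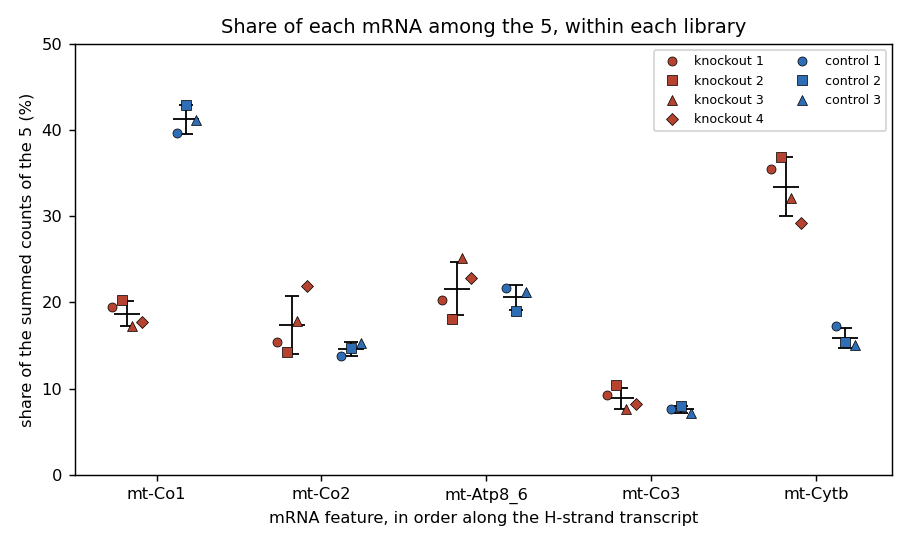
Share of each mRNA in the summed counts of the 5 (%), per library, with 4 knockouts (red) left of 3 controls (blue) and bars for mean ± SD. For mt-Co1 the knockouts lie at 17.3% to 20.3% and the controls at 39.6% to 43.0%, and for mt-Cytb the knockouts lie at 29.2% to 36.9% and the controls at 15.1% to 17.3%.

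Shares varied less between replicates than levels did, for every member in both groups. The highest CPM of mt-Co1 was 2.35 times the lowest in knockouts and 4.87 times in controls, while its highest share was 1.17 times the lowest in knockouts and 1.08 times in controls. For mt-Cytb the ratio of highest to lowest was 2.59 in knockouts and 4.0 in controls for CPM, and 1.26 in knockouts and 1.144 in controls for the share. The widest spread of shares was that of mt-Co2 in knockouts, at 1.54 times.

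Ratios of 2 members do not depend on the others, unlike shares. The log2 ratio of mt-Co1 to mt-Cytb was -0.86, -0.86, -0.89 and -0.72 in knockouts, against 1.20, 1.48 and 1.45 in controls, so the sign differed between the groups in all 7 libraries. Its mean was -0.84 ± 0.08 in knockouts (SD, n = 4) and 1.38 ± 0.16 in controls (SD, n = 3). This pair was picked in view of the shares, so the difference of -2.21 is given as a description. The neighbours in complex IV, mt-Co2 and mt-Co3, had a log2 ratio of 0.96 ± 0.43 in knockouts (SD, n = 4) and 0.94 ± 0.13 in controls (SD, n = 3). The ratio of mt-Atp8_6 to mt-Co2 was 0.32 ± 0.19 in knockouts (SD, n = 4) and 0.50 ± 0.15 in controls (SD, n = 3), with overlap.

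Per base of sequence, mt-Co1 and mt-Cytb stood in opposite order in the groups. Counts per kilobase (raw counts divided by annotated length) of mt-Cytb were 11249, 9055, 13769 and 21045.5 in knockouts and those of mt-Co1 were 4585, 3685, 5498 and 9434, so mt-Cytb was the higher in each. In controls, mt-Cytb had 12336.5, 126635 and 69928 counts per kilobase and mt-Co1 had 20977, 262155 and 141427, so mt-Co1 was the higher in each. Among the 10 mRNA features of the H strand, mt-Cytb ranked 1, 1, 2 and 3 in knockouts and 9, 5 and 6 in controls, whereas mt-Co1 ranked 8, 9, 8 and 7 in knockouts and 2, 1 and 1 in controls. In all knockouts mt-Cytb, mt-Atp8_6 and mt-Co2 were above mt-Co1 and mt-Co3, but the order of the first 3 was the same only in knockouts 1 and 2, and mt-Co1 was above mt-Co3 in knockouts 1, 3 and 4 and below it in knockout 2. In controls the order was mt-Co1, mt-Atp8_6, mt-Co2, mt-Cytb and mt-Co3 in controls 2 and 3, and control 1 differed from it only in that mt-Atp8_6 was just above mt-Co1, at 21061 and 20977 counts per kilobase.

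Taken as a sum, the 5 mRNAs held 2.83%, 2.15%, 5.04% and 7.96% of all counts in knockouts, against 5.24%, 36.7% and 26.3% in controls. Knockout 4 was above control 1, so the groups overlapped, and the 95% Wilson intervals (7.91 to 8.01% in knockout 4 and 5.20 to 5.27% in control 1) cover counting error only. The mean was 4.50% ± 2.62 in knockouts (SD, n = 4) and 22.7% ± 16.0 in controls (SD, n = 3).

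The mRNAs of complex I from the same H-strand transcript (mt-Nd1, mt-Nd2, mt-Nd3, mt-Nd4l_4 and mt-Nd5) were the closest RNAs to compare with. The summed counts of the 5 mRNAs of complexes III to V were 1.104 ± 0.11 times those of complex I in knockouts (SD, n = 4) and 1.20 ± 0.24 times in controls (SD, n = 3), with overlap. The complex I mRNAs themselves had log2 fold changes of -3.19 to -2.09, with a median of -3.13. mt-Co1 was thus below, and mt-Cytb above, the range of the complex I mRNAs in its fold change.

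The contrast of mt-Co1 and mt-Cytb with the complex I mRNAs was also seen within libraries. The log2 ratio of mt-Co1 to the summed complex I mRNAs was -2.22, -2.31, -2.43 and -2.18 in knockouts, against -1.43, -0.74 and -0.94 in controls. All knockouts lay below all controls, and the difference of -1.25 is a 0.421-fold ratio (knockout mean -2.28 ± 0.11, SD, n = 4; control mean -1.04 ± 0.35, SD, n = 3; exact permutation test, p = 0.0286, adjusted p = 0.107). For mt-Cytb the log2 ratio was -1.36, -1.44, -1.54 and -1.45 in knockouts, against -2.63, -2.23 and -2.38 in controls. Here all knockouts lay above all controls, and the difference of 0.96 is a 1.95-fold ratio (knockout mean -1.45 ± 0.08, SD, n = 4; control mean -2.41 ± 0.20, SD, n = 3; exact permutation test, p = 0.0286, adjusted p = 0.107). Neither passed after adjustment over the 15 values. Without control 1 the differences were -1.44 for mt-Co1 and 0.86 for mt-Cytb. The complex I mRNAs also shifted against each other. As a percent of the summed H-strand mRNA counts, mt-Nd2 was at 10.323 to 12.962 in knockouts and 5.986 to 9.293 in controls. mt-Nd5 was at 15.724 to 17.083 and 11.392 to 13.482. mt-Nd1 was at 6.913 to 8.313 and 9.58 to 10.089, and mt-Nd4l_4 at 8.061 to 12.526 and 12.798 to 16.543. mt-Nd3 overlapped between the groups. Shifts were thus not particular to mt-Co1 and mt-Cytb. These shares were not tested.

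The members that lie between them on the genome overlapped between the groups in their ratios to the complex I mRNAs. mt-Co2 had a mean log2 ratio of -2.41 ± 0.40 in knockouts (SD, n = 4) and -2.54 ± 0.36 in controls (SD, n = 3), a difference of 0.13 (exact permutation test, p = 0.714). mt-Atp8_6 had -2.08 ± 0.30 in knockouts (SD, n = 4) and -2.04 ± 0.23 in controls (SD, n = 3), a difference of -0.04 (exact permutation test, p = 0.886). mt-Co3 had -3.37 ± 0.16 in knockouts (SD, n = 4) and -3.47 ± 0.32 in controls (SD, n = 3), a difference of 0.11 (exact permutation test, p = 0.571). Each of these differences was smaller than the SD of either group, which does not show that the ratios were equal. Without control 1 the differences were -0.08 for mt-Co2, -0.17 for mt-Atp8_6 and -0.06 for mt-Co3, so the sign turned for mt-Co2 and mt-Co3.

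**Figure D4:**
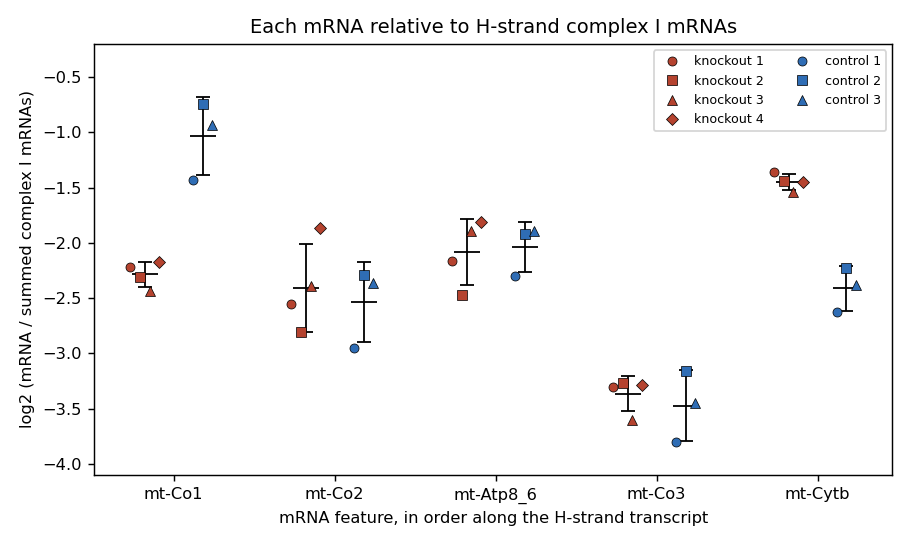
Log2 ratio of each mRNA to the summed counts of the 5 H-strand complex I mRNA features within each library, with 4 knockouts (red) left of 3 controls (blue) and bars for mean ± SD. The knockouts lie below the controls for mt-Co1 (knockout mean -2.28, control mean -1.04), above them for mt-Cytb (knockout mean -1.45, control mean -2.41), and the groups overlap for the other members.

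A second comparison within libraries set each mRNA against the nearest tRNA of the H strand, which is cut from the same precursor. mt-Co1 lay 6.20, 7.59, 5.48 and 5.43 log2 units above mt-Td in knockouts, against 7.49, 10.2 and 8.85 in controls. Knockout 2 was above control 1, and the mean difference was -2.67 (exact permutation test, p = 0.0857, adjusted p = 0.257). mt-Td was low in knockout 2, at 29.1 CPM, against 106 to 147 CPM in the other knockouts. Without knockout 2 the mt-Co1 difference was -3.15 (exact permutation test, p = 0.100, the smallest that split allows). mt-Co2, set against mt-Td as well, differed by -1.30 (exact permutation test, p = 0.171), mt-Atp8_6 against mt-Tk by -0.78 (p = 0.514), mt-Co3 against mt-Tg by -0.68 (p = 0.400) and mt-Cytb against mt-Tt by -0.27 (p = 0.800). The groups overlapped for all 5, and mt-Co1 and mt-Co2 share their tRNA. Without control 1 the differences were -3.35 for mt-Co1, -1.99 for mt-Co2, -1.82 for mt-Atp8_6, -1.66 for mt-Co3 and -1.57 for mt-Cytb, and without control 2 they turned positive for mt-Atp8_6 (0.0738), mt-Co3 (0.0216) and mt-Cytb (0.68). Without control 3 the difference turned positive for mt-Cytb as well (0.0776). Set against the summed H-strand tRNAs from mt-Td to mt-Tt instead, the differences were -3.12 for mt-Co1, -1.74 for mt-Co2, -1.91 for mt-Atp8_6, -1.76 for mt-Co3 and -0.90 for mt-Cytb (exact permutation test, p = 0.0857, 0.229, 0.143, 0.200 and 0.514).

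The controls were widely spread in these ratios. mt-Cytb lay 4.73, 4.40, 4.97 and 5.55 log2 units above mt-Tt in knockouts, against 2.58, 7.08 and 5.89 in controls, so that control 1 was below and the other controls above every knockout. mt-Co3, the one member near its tRNA in count, had log2 ratios to mt-Tg of -0.43, -0.42, -0.37 and -0.08 in knockouts, against -1.60, 1.76 and 0.91 in controls. The SD of the mt-Co3 ratio was 0.16 in knockouts and 1.75 in controls.

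**Figure D5:**
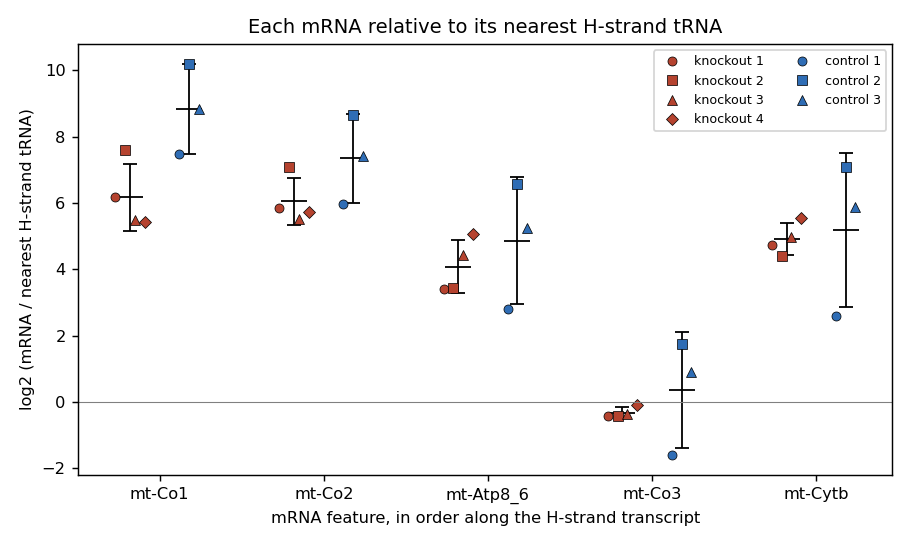
Log2 ratio of each mRNA to its nearest H-strand tRNA within each library, with 4 knockouts (red) left of 3 controls (blue) and bars for mean ± SD. Control 1 is the lowest control for every mRNA, and the groups overlap for all 5, with mean differences of -2.67 for mt-Co1 to -0.27 for mt-Cytb.

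Across the 7 libraries, the features whose centred log2 CPM profile lay closest to the mean profile of the 5 were mt-Nd1, with a root mean square distance of 0.209 log2 units, mt-Nd5 with 0.243, mt-Nd4l_4 with 0.376, mt-Nd2 with 0.417 and Hrc with 0.511. Hrc, whose product binds calcium in the sarcoplasmic reticulum, is the one nuclear gene of these. The distances of the members from their own mean were 0.145 for mt-Co3, 0.147 for mt-Atp8_6, 0.194 for mt-Co2, 0.50 for mt-Cytb and 0.614 for mt-Co1. All profiles share the same libraries and scaling, so the distances are a description.

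The nuclear genes of the same complexes gave few counts in these libraries. With TMM scaling, of 9 nuclear subunits of complex III, 6 were tested, of which 0 were called in either direction by edgeR and 6 had negative log2 fold changes, with a median of -0.47. The smallest adjusted p among them was that of Cyc1, cytochrome c1, at 13.3 ± 2.49 CPM in knockouts (SD, n = 4) and 25.5 ± 6.91 CPM in controls (SD, n = 3), a log2 fold change of -0.91 with an SE of 0.28 (edgeR adjusted p = 0.0881). Uqcrfs1, the Rieske iron-sulfur protein, had -0.76 (SE 0.30, edgeR adjusted p = 0.166) and Uqcrh, the hinge protein, had -0.58 (SE 0.32, edgeR adjusted p = 0.304). Of 16 nuclear subunits of complex IV, 9 were tested, of which 1 was called lower, 0 were called higher and 8 had negative values, with a median of -0.62. The 1 called was Cox7a1, the heart and muscle form of a small subunit, at 5.37 ± 1.32 CPM in knockouts (SD, n = 4) and 17.9 ± 7.44 CPM in controls (SD, n = 3), and with TMM scaling it fell by 1.60 on the log2 scale (SE 0.35; edgeR adjusted p = 0.0370). Next by adjusted p were Ndufa4, a small subunit first assigned to complex I, at -0.68 (SE 0.23, edgeR adjusted p = 0.115), and Cox6a2, another heart and muscle form, at -0.63 (SE 0.27, edgeR adjusted p = 0.213). Of 16 nuclear genes of complex V, 9 were tested, of which 0 were called in either direction and 8 had negative values, with a median of -0.28. The exception was Atpif1, the inhibitor of the ATP synthase, with 11.6 ± 5.16 CPM in knockouts (SD, n = 4) and 2.92 ± 1.54 CPM in controls (SD, n = 3), a log2 fold change of 1.69 with an SE of 0.48 (edgeR adjusted p = 0.0750). Atp5o, a subunit of the stalk, had -0.81 (SE 0.30, edgeR adjusted p = 0.149) and Atp5d, a subunit of the catalytic part's rotor, had -0.37 (SE 0.21, edgeR adjusted p = 0.328). Of all tested genes, 49.3% had a negative log2 fold change with TMM scaling. Under scaling to total counts, which moves all genes up together, 0 of the 6 complex III genes, 1 of the 9 complex IV genes and 0 of the 9 complex V genes had negative values, and Cox7a1 was at -0.57 (edgeR adjusted p = 0.796). Under scaling to mitochondrially encoded features Cox7a1 was at -0.38 (edgeR adjusted p = 0.809), and under scaling to microRNA genes at -0.19 (edgeR adjusted p = 0.981).

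Of 25 factors that express or assemble these subunits, 1 passed the low-count filter. It was Lrpprc, which binds and stabilises mitochondrial mRNAs, with 25.7 ± 6.39 CPM in knockouts (SD, n = 4) and 21.2 ± 2.72 CPM in controls (SD, n = 3), a log2 fold change of 0.29 with an SE of 0.28 (edgeR adjusted p = 0.583).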

How the data were processed

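Per the labels' protocols, small RNA of crude heart mitochondria was made into Illumina libraries and read from one end on a MiSeq. Raw counts per feature were deposited by the authors, as was a normalised signal, which is the count divided by 1 factor per library (0.496 to 2.65) and was used for a check alone. The authors' deposited table of comparisons holds a log2 fold change, a Wald score and a p-value per feature, per the file headers. The submitters' processing notes name DESeq2 1.14.1, R 3.3.2, featureCounts, Bowtie2, bedtools, cutadapt 1.10, SAMtools 1.3.1 and the build mm10. The notes used here do not state the strand setting. Fragments of a gene and of any RNA from the other strand over the same bases therefore cannot be told apart.

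The counts of 49584 features, 15828 of them with a count, entered edgeR 4.0.16 under R 4.3.3 (two-sided quasi-likelihood test, TMM, no covariate, filterByExpr at a minimum count of 10). SEs were taken from the log2 fold change and its F statistic. Members, lists and the 15 values within libraries were chosen with earlier results of these data known. Ratios had 0.5 added to each count and were tested, like the shares, by two-sided exact permutation in Python 3.11.15 with numpy 2.4.6. Wilson intervals came from scipy 1.17.1. Named nuclear genes were the 3 lowest by adjusted p in each list of subunits or factors, where tested, and the 5 features with the closest profiles, and Cd74 was named after its value was seen. Procedures were tested on simulated data. Alternatives were other scalings, no filter, DESeq2 1.42.0, a replicate block, each library left out and other forms of the shares and ratios. Nuclear copies were sought with blastn 2.17.0 in the annotated transcripts.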

Additional observations from a re-analysis of the deposited data

Results flagged for a closer look

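Of 33 groups of 4 knockout values checked for a value far from the others (a gap to the nearest value, as a part of the whole range, above Dixon's 95% critical value), 2 were found, and chance gives about 1 in 20. Both concerned mt-Co3. Its log2 ratio to mt-Tg was -0.0820 in knockout 4, while the next knockout was at -0.370 and the lowest at -0.430. Its log2 ratio to the complex I mRNAs was -3.60 in knockout 3, while the others lay between -3.30 and -3.27.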

How the results depend on the processing

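All 5 members kept a negative log2 fold change in the edgeR fit and all 16 alternatives. Of the 5, 1 was called under TMM, RLE, TMMwsp, total-count and mitochondrial scaling. Under scaling to microRNA genes 0 were called by edgeR (1 at an unadjusted p under 0.05; mt-Co1 -4.02, adjusted p = 0.975), and with no filter on low counts 0 (4 unadjusted; mt-Co1 -4.26, adjusted p = 0.407). DESeq2 called 4 (mt-Co2 -2.86, mt-Atp8_6 -2.96, mt-Co3 -2.80), as did the composition covariate added after the data were seen (mt-Co2 -2.59, mt-Atp8_6 -2.73, mt-Co3 -2.62). With each library left out in turn, 0 members were called by edgeR every time (4 to 5 unadjusted), with log2 fold changes of -4.69 to -3.82 for mt-Co1, -3.37 to -2.52 for mt-Co2, -3.45 to -2.62 for mt-Atp8_6, -3.30 to -2.44 for mt-Co3 and -2.38 to -1.52 for mt-Cytb. Over all genes 105 were called, against 11 under total-count scaling, 8 under mitochondrial scaling, 0 under microRNA scaling (28 unadjusted), 192 with no filter, 371 with the covariate, 189 by DESeq2 and 0 to 75 with a library left out (0 without control 2 or control 3). Replicate numbers did not pair the libraries (correlations of deviations of same-numbered libraries 0.51, -0.78 and 0.31), and with the replicate number as a block 0 members and 0 genes were called (1 and 338 unadjusted), with mt-Co1 at -3.80 (adjusted p = 0.204). The causes were not tested.

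The share of mt-Co1 differed by -16.1 percentage points per kilobase of sequence and that of mt-Cytb by 13.8, each at exact p = 0.0286. With mt-Co1 left out of the sum, mt-Cytb differed by 14.1 points (exact p = 0.0286), and mt-Co2, mt-Atp8_6 and mt-Co3 turned to -3.55, -8.53 and -2.04. The share of mt-Atp8_6 also turned per kilobase (-0.75) and as a centred log ratio (-0.0264), and its complex I ratio with the mean of log counts (0.0649). With each library left out, shares differed by -23.4 to -21.7 points for mt-Co1, 16.4 to 18.9 for mt-Cytb, 1.25 to 3.80 for mt-Co2, 0.75 to 1.66 for mt-Co3 and -0.18 to 2.16 for mt-Atp8_6. Complex I ratios then differed by -1.44 to -1.10 for mt-Co1, 0.86 to 1.06 for mt-Cytb, -0.0804 to 0.26 for mt-Co2, -0.17 to 0.0844 for mt-Atp8_6 and -0.0561 to 0.26 for mt-Co3. The tRNA ratios differed by -3.35 to -1.99 for mt-Co1, -1.99 to -0.64 for mt-Co2, -1.82 to 0.0738 for mt-Atp8_6, -1.66 to 0.0216 for mt-Co3 and -1.57 to 0.68 for mt-Cytb. With 6 libraries the smallest exact p is 0.0667 or 0.100, so those tests could not pass. The members had 2915 counts or more in every library.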
